A study of Mus musculus with 12 samples.

Results

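The comparison asked which RNAs differed between Msi2 mutant and wild-type leukaemic stem cells when the kind of leukaemia was held constant. All 12 of the 12 arrays entered it, 6 from Msi2 mutant and 6 from wild-type cells by their titles. In each of 2 mouse leukaemias the mutant minus wild-type difference of log2 intensity was taken for every probe set, a set of array probes for 1 transcript. The mean of these 2 differences is called the shared difference here. Of 45037 probe sets on the array, 34945 carried 1 gene symbol, and 19413 of those, for 10817 genes, had a log2 value above 4 (16 intensity units) on at least 3 arrays and were tested.

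Msi2 encodes Musashi2, an RNA-binding protein that attaches to target mRNAs and alters their translation and stability. It is known for keeping blood stem and progenitor cells and leukaemic cells in an immature state. An RNA array reads the level of each mRNA and not its translation.

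The cells began as KLS stem and progenitor cells (Kit-positive, lineage-negative, Sca1-positive) of donor mice that were wild-type or Msi2 Gt/Gt, that is, homozygous for a gene trap, an inserted cassette that interrupts a transcript. MLL-AF9, a fusion of a histone methyltransferase gene, was introduced for de novo acute myelogenous leukaemia (AML). BCR-ABL with NUP98-HOXA9 was introduced for blast crisis chronic myelogenous leukaemia (bcCML). The cells were transplanted, and stem cells of established disease were sorted as Lin-Sca1-ckit+ cells in AML and as Lin- cells in bcCML. The 4 groups, wild-type and mutant of each leukaemia, held 3 arrays each, titled as biological replicates, with no treatment. The strain label, B6;CB-Msi2Gt(pU-21T)2Imeg, was the same for all arrays, those of wild-type genotype included. No age, sex or recipient is given in the sources used here, nor whether replicates came from separate animals, so the p-values measure the spread between these samples.

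Log2 values were compared in 1 limma fit of the 4 group means, two-sided, with Benjamini-Hochberg adjustment over the 19413 probe sets and a threshold of 0.05. Array medians lay between 13.1 and 13.8 units and correlations between replicates between 0.941 and 0.98. Ptprc, the pan-leukocyte marker CD45, lay between 1110 and 5290 units on every array, and Kit between 78.2 and 546. The T-cell gene Cd3e was below the filter. The monocyte receptor gene Csf1r measured 1530 to 10600 units in AML and at most 5.14 in bcCML, and the Mac-1 gene Itgam 35 to 86.6 in AML and at most 4.52 in bcCML. In such bulk samples, fewer cells of a type and less RNA per cell cannot be told apart.

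Msi2 itself was lower on every mutant array of both leukaemias. Its brightest probe set read 325, 181 and 430 units on the wild-type AML arrays and 52.9, 69.1 and 86.9 on the mutant ones. In bcCML it read 2583, 4319 and 4579 units on the wild-type arrays against 487, 721 and 608 on the mutant ones. The groups did not overlap in either leukaemia, and all mutant bcCML arrays lay above all wild-type AML arrays. The shared difference of this probe set was -2.37 ± 0.24 (log2, SE; limma adjusted p = 0.00472), 5.17-fold. An exact two-sided permutation test within leukaemias gave p = 0.005, the smallest that the 400 arrangements allow. All 5 tested Msi2 probe sets were negative. The other called ones gave -2.78 ± 0.23 (limma adjusted p = 0.00332) and -3.31 ± 0.35 (limma adjusted p = 0.00578), and the remaining ones gave -1.38 (adjusted p = 0.0953) and -1.39 (adjusted p = 0.0831). The probe set with the smallest p lay at 9.53 to 10.9 units in mutant AML, below 16 on all its arrays, but at 891 to 1584 in mutant bcCML. Where each probe set lies relative to the trap is not given in the sources used here.

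Across the array, falls outnumbered rises. The limma fit called 74 probe sets, 0.381% of those tested. Of these, 58 were lower in mutants (0.299%) and 16 higher (0.0824%). They stood for 64 genes, 49 lower and 15 higher. This is 0.592% of the genes tested when any probe set counts and 0.407% when only the brightest of each gene does. The filter asks for 3 arrays, so a probe set can pass it through the 1 group where it is high. Rsad1, Ankrd29, Fam71b, Megf9, Myo16, Klhl25, Bik, Abcc8, St6galnac3, Fam161a, Ppy, Cttnbp2 and Mfap3l passed in this way. Cuedc1, Arap2, Mmp8 and the Dgke probe set with the smallest p also needed their highest group to pass. Outside that group, fewer than 3 of their arrays were above 16 units. For them the filter already favours a difference between groups. At an unadjusted p under 0.05 there were 2494 probe sets. In the same fit the AML difference called 213 probe sets (1.1%) and the bcCML difference 13 (0.067%). Of the 74 shared calls, 53 were also called in AML alone, 9 in bcCML alone and 1, the brightest of Msi2, in each alone. A limma test of bcCML minus AML differences called 6 probe sets (0.0309%), all among the 74.

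A mean of 2 differences can pass the threshold when only 1 leukaemia moves, so each call was sorted by whether its 3 mutant arrays lay apart from its 3 wild-type arrays. For 34 genes they lay apart to the same side in both leukaemias, 27 lower and 7 higher. For 22 genes, 17 lower and 5 higher, they lay apart in AML but not in bcCML. For 7 genes, 4 lower and 3 higher, it was the reverse, and 1 gene, Tubb2a, lay apart to opposite sides. By probe set, 42 of the 74 calls lay apart to the same side in both. Over all tested probe sets this held for 404 (2.08%), 331 lower (1.71%) and 73 higher (0.376%), and 148 (0.762%) lay apart to opposite sides. Being apart in 1 leukaemia only was common. It held in AML for 24 of the 74 calls and 2552 of the 19413 tested, and in bcCML for 7 calls and 2614 tested. The fit favours differences that are large beside their spread, so the higher share of calls apart to the same side in both is a description. Over all tested probe sets the AML and bcCML differences had a Pearson correlation of 0.0782 and the same sign in 53.4%, a description across probe sets that come from the same 12 arrays.

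**Figure D1:**
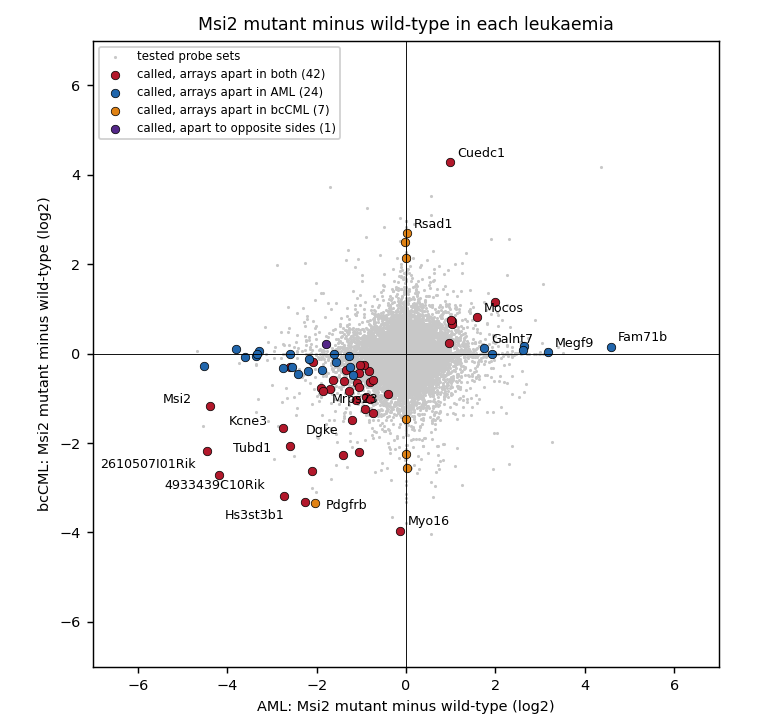
Difference of mutant from wild-type cells in AML (horizontal) against that in bcCML (vertical), both log2, for all 19413 tested probe sets in grey and the 74 called for the mean of both in colour by how the arrays separate. Calls apart in both leukaemias (42) lie mainly in the lower left, while the 24 apart in AML lie along the horizontal axis and the 7 apart in bcCML mostly along the vertical one.

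The number of calls depended strongly on the model and on single arrays. It was 7 in an additive model without the interaction, 6 with a replicate block in both leukaemias and 851 with array weights. Without wild-type replicate 1 of AML and of bcCML it was 15 and 12. Without wild-type replicates 2 and 3 it was 85 and 44 in AML and 21 and 22 in bcCML. Without mutant replicates 1, 2 and 3 it was 96, 60 and 52 in AML and 32, 32 and 26 in bcCML. Every one of the 74 calls that could still be tested kept its sign in each of the fits without 1 array. Calls that held whichever of the 12 arrays was left out numbered 7, in 5 genes: Msi2, Tubd1, Npl, Galnt7 and Mrps23. Another 53 were no longer called, or no longer passed the filter, without 6 or more of the arrays, taken 1 at a time, and for 5 of those this held without any 1 of them (Mutyh, Tnip1, 1500011B03Rik, Cttnbp2 and Mfap3l). Such losses are repeated below for some genes only. The calls of Zfp266, Cd1d1, Armcx1 and Borcs7 also ended without 11 of the 12 arrays. Those of Bid, Rad23b and Kif1b ended without 10. The main fit, which gave the calls and p-values here, did not pair arrays. Same-numbered bcCML arrays were treated as pairs in an alternative fit, with the replicate numbers as a block in bcCML. It called 81 probe sets, 45 of them among the 74. The other 29 of the 74 had adjusted p-values up to 0.0878 in it. For genes named below whose call ended with this block, its adjusted p stands beside them.

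**Figure D2:**
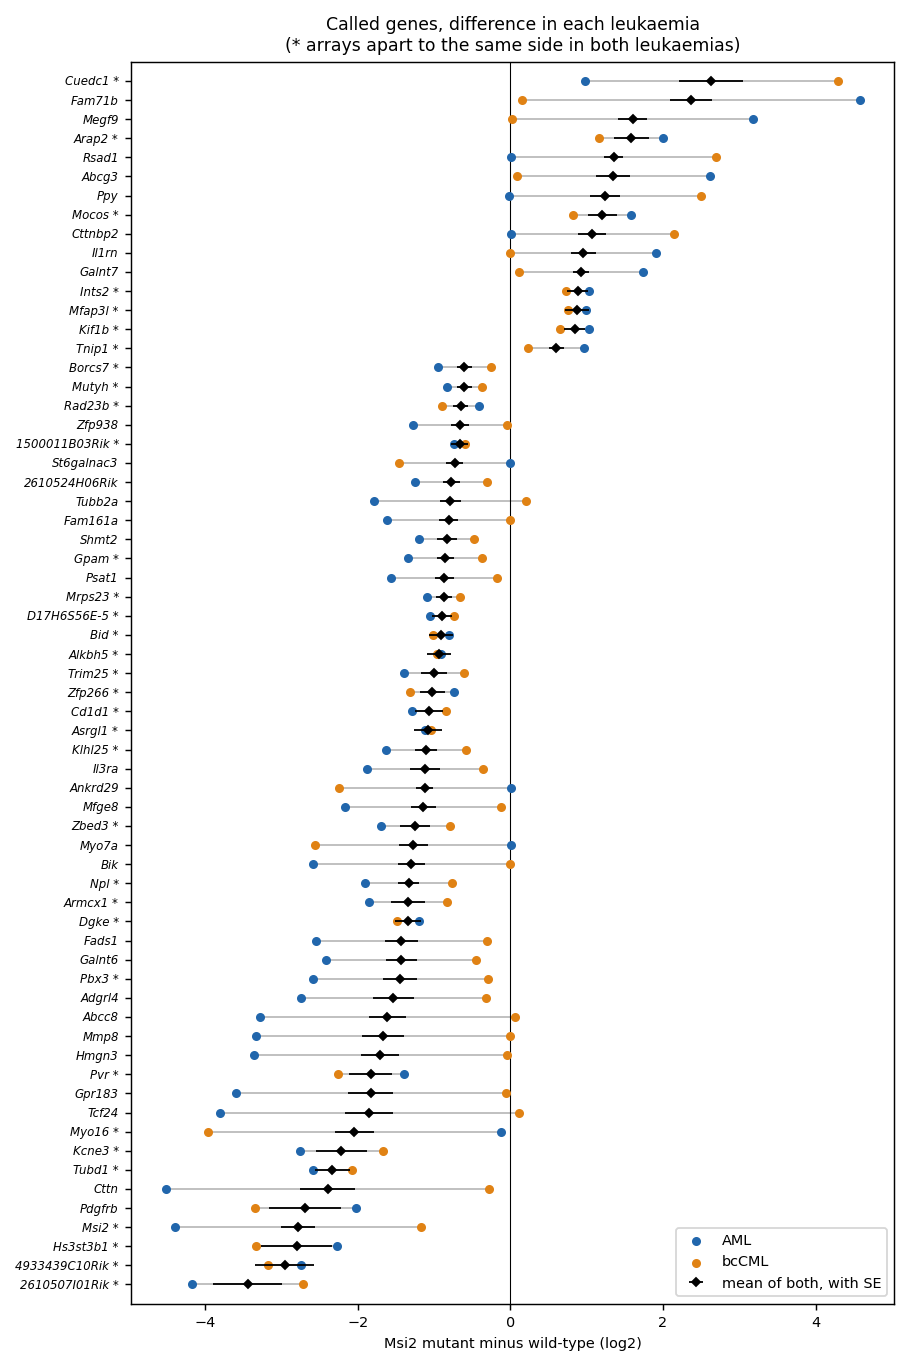
Log2 difference between mutant and wild-type in AML (blue) and bcCML (orange) and their mean with its SE (black) for the 64 called genes, each by its called probe set with the smallest p. An asterisk marks the 34 genes whose arrays lay apart to the same side in both leukaemias, and Fam71b, Cttn, Tcf24 and Myo16 show wide gaps between the leukaemias.

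Several of the genes called for the mean of both differences were neighbours of Msi2. On chromosome 11, which holds Msi2, 16 of 899 tested genes were called (1.78%), 10 lower and 6 higher, and 12 of them lay apart in both leukaemias. Over all chromosomes, 34 of the 64 called genes lay apart in this way. Among the 16, Rsad1, Fam71b, Fam161a and Ppy passed the filter through 1 group only, and Cuedc1 would not have passed it without mutant bcCML. On the other chromosomes together 48 of 9877 tested genes were called (0.486%). They ran from 0 of 383 on chromosome 12 and 0 of 359 on chromosome 16 to 5 of 395 on chromosome 19 (1.27%). Of the 100 tested genes nearest to Msi2, 50 on each side, 7 were called (7%), against 8 of the 798 farther away (1%). This window was chosen with the values known, and which alleles the mutant and wild-type donors carried around the trap was not tested.

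**Figure D3:**
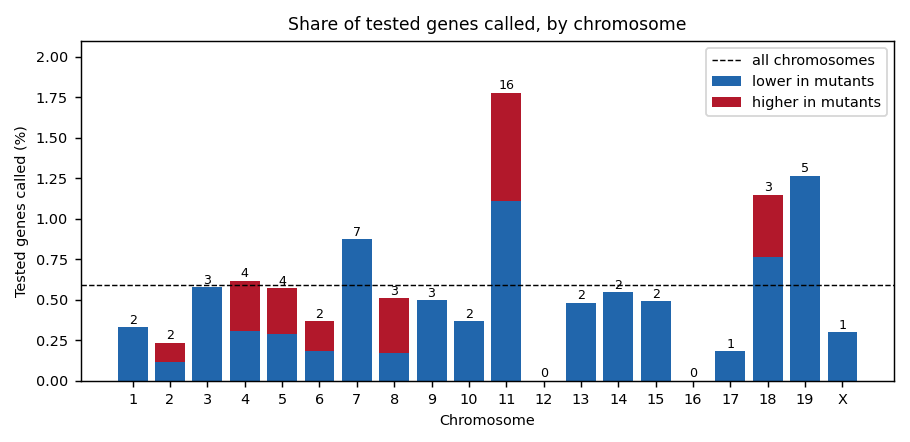
Share of tested genes with a called probe set on each chromosome, in percent, split into genes lower (blue) and higher (red) in mutants, with the number called above each bar. Chromosome 11 stands highest at 1.78% (16 genes), and the dashed line is the share over all tested genes.

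Counting tested genes outward from Msi2, Mrps23 was the nearest on one side and Cuedc1 the next, with Tubd1 at 22 and Ints2 at 25. On the other side Trim25 was at 5, Dgke at 6 and Rsad1 at 22. No sequence is shown for Cuedc1, Ints2 and Rsad1, which rose. For the 4 neighbours that fell, the stretches before the annotated starts are shown, and their part in the falls was not tested. They come from the RefSeq promoter table (GRCm38.p6), read 5′ to 3′ on the gene's strand: Mrps23 chr11:88204138-88204387 (+), Dgke chr11:89060749-89060998 (-), Trim25 chr11:88999153-88999402 (+) and Tubd1 chr11:86544886-86544990 (+). Tubd1 is cut to the 105 bases between it and Rps6kb1, a gene read the other way with no tested probe set. Capitals mark the motifs CCAAT and GGGCGG and the E-box CACGTG on either strand.
Mrps23: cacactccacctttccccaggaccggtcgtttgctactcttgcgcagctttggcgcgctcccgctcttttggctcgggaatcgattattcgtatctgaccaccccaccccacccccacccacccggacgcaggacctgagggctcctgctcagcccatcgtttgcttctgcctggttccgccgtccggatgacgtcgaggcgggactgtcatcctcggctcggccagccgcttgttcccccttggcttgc
Dgke: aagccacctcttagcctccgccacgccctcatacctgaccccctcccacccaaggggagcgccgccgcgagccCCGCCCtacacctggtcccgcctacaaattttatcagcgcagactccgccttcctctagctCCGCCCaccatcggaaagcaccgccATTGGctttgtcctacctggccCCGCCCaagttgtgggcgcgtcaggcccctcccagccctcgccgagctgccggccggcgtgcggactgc
Trim25: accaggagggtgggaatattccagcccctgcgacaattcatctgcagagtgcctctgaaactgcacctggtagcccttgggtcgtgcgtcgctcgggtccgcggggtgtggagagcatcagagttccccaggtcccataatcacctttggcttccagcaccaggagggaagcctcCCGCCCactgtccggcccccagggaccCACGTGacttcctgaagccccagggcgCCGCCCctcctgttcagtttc
Tubd1: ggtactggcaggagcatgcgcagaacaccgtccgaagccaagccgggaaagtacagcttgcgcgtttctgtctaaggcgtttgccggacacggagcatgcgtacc

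Dgke held 1 match to CCAAT and 3 to GGGCGG, Trim25 held 2 to GGGCGG and 1 to CACGTG, and Mrps23 and Tubd1 held none. No motif was in all 4. Among 32851 promoters of 250 bases, 33.8% held CCAAT, 32.7% GGGCGG and 6.02% CACGTG. The sequences had 64%, 68.4%, 63.2% and 60% G and C in the order shown, against a median of 52.4% over all promoters. In the same order they held 21, 22, 12 and 10 CpG pairs, the last over 105 bases, against a median of 6.

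Tubd1, encoding delta-tubulin of the centriole, was lower in mutants by similar amounts in both leukaemias. Its arrays read 131, 152 and 81.8 units in wild-type and 20.8, 21.3 and 16.9 in mutant AML. In bcCML they read 72.1, 141 and 126 in wild-type and 18.7, 26.7 and 34.3 in mutant cells. The groups were far apart in both, and the lowest wild-type array was above the highest mutant array of either leukaemia. In the shared contrast Tubd1 stood at -2.33 ± 0.23 (log2, SE; limma adjusted p = 0.00443), with -2.59 in AML and -2.07 in bcCML, 5.03-fold.

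Mrps23, a protein of the small mitochondrial ribosomal subunit, was well expressed and fell by less. Wild-type arrays read 1140, 1036 and 988 units in AML and 1096, 998 and 1341 in bcCML. Mutant arrays read 454, 533 and 500 units in AML and 752, 684 and 722 in bcCML. No mutant array reached a wild-type one in either leukaemia. This gave a shared difference of -0.88 ± 0.10 (log2, SE; limma adjusted p = 0.0101). Another probe set gave -0.72 ± 0.10 (limma adjusted p = 0.0184), and its call ended without 6 of the 12 arrays, at adjusted p up to 0.0653.

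Dgke encodes diacylglycerol kinase epsilon, which turns the signalling lipid diacylglycerol into phosphatidic acid. Its probe set with the smallest p read 13.9, 12 and 12.8 units in wild-type and 4.65, 6.21 and 6.08 in mutant AML, all below the filter level. In bcCML it read 53.8, 69.3 and 38.5 in wild-type and 23.2, 14.8 and 19.3 in mutant cells. It was lower on every mutant array, but the AML size is that of values near the array's floor of 4.49 units. The fitted shared difference was -1.34 ± 0.17 (log2, SE; limma adjusted p = 0.0145). All 3 of its probe sets were called, the others at -1.63 ± 0.23 (limma adjusted p = 0.0242) and -1.08 ± 0.17 (limma adjusted p = 0.0326, and 0.0525 with the bcCML block), the last of these with no group below 16 units.

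Trim25 encodes a ubiquitin ligase of antiviral RNA sensing. It went from 860 ± 197 to 332 ± 95.4 units in AML (SD, n = 3) and from 1055 ± 158 to 694 ± 103 in bcCML (SD, n = 3), with no overlap in either. The shared difference was -0.997 ± 0.17 (log2, SE; limma adjusted p = 0.043, and 0.0568 with the bcCML block). The call ended without 11 of the 12 arrays, with adjusted p up to 0.124.

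Other neighbours of Msi2 moved the opposite way. Cuedc1, which encodes a protein with a ubiquitin-binding CUE domain, had its rise mainly in bcCML. Wild-type bcCML arrays read 12.1, 8.47 and 13.6 units and mutant ones 399, 102 and 254. In AML the wild-type arrays read 7.27, 4.71 and 7.18 and the mutant ones 32.2, 7.71 and 7.55, so only mutant replicate 1 was above 16 units. The groups did not overlap in either leukaemia, narrowly so in AML. The shared difference of 2.63 ± 0.42 (log2, SE; limma adjusted p = 0.0331) averages 4.29 in bcCML and 0.98 in AML.

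Ints2, a subunit of the Integrator complex that cleaves nascent RNAs, was higher by like amounts in both. The wild-type arrays read 231, 213 and 168 units in AML and 216, 328 and 259 in bcCML, and the mutant arrays 477, 367 and 398 and 445, 457 and 414. Every mutant array was above every wild-type array, also across leukaemias. Its shared difference was 0.88 ± 0.13 (log2, SE; limma adjusted p = 0.0308). Its other tested probe set had a shared difference of the opposite sign and was not called, so the probe sets of Ints2 disagree. Rsad1, with a radical SAM domain, went from 4.96 to 32.9 units in bcCML and lay below 5 in AML in both groups.

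Farther along chromosome 11 the largest shared falls belonged to genes known by clone names. 4933439C10Rik read 56.5, 27.5 and 29.4 units in wild-type and 4.88, 4.81 and 6.51 in mutant AML, and 254, 151 and 212 in wild-type and 62.7, 13.2 and 13.2 in mutant bcCML. The groups were apart in both, with mutant bcCML replicate 1 well above the other mutant arrays. In the shared contrast 4933439C10Rik stood at -2.96 ± 0.38 (log2, SE; limma adjusted p = 0.017). 2610507I01Rik read 199, 166 and 132 units in wild-type and 14, 5.53 and 9.52 in mutant AML, and 56.4, 89.8 and 74.2 in wild-type and 38.2, 5.01 and 6.95 in mutant bcCML. Again mutant bcCML replicate 1 was the closest to wild-type. This gave a shared difference of -3.44 ± 0.45 (log2, SE; limma adjusted p = 0.0171). These genes lay 317 and 323 tested genes from Msi2.

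The other chromosome 11 genes apart in both leukaemias were Hs3st3b1, Alkbh5 and Tnip1. Hs3st3b1, a heparan sulfate sulfotransferase, went from 113 ± 65.4 to 20.8 ± 7.43 units in AML (SD, n = 3) and from 135 ± 81.3 to 11.2 ± 2.4 in bcCML (SD, n = 3), a shared difference of -2.80 ± 0.47 (log2, SE; limma adjusted p = 0.0422, and 0.051 with the bcCML block). Alkbh5, an eraser of N6-methyladenosine in RNA, had nearly equal falls, from 554 ± 85.7 to 299 ± 72.2 units in AML (SD, n = 3) and from 912 ± 57.5 to 475 ± 110 in bcCML (SD, n = 3). Its shared difference was -0.94 ± 0.16 (log2, SE; limma adjusted p = 0.043, and 0.0536 with the block). The calls of Hs3st3b1 and Alkbh5 ended without 10 and 9 of the 12 arrays, with adjusted p up to 0.124 and 0.135.

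Tnip1, which binds A20 and restrains NF-kappaB signalling, was higher in mutants. In AML it read 1497, 1365 and 1163 units in wild-type and 2765, 2770 and 2325 in mutant cells. The bcCML arrays read 662, 706 and 623 in wild-type and 732, 776 and 833 in mutant cells. The arrays were apart in both leukaemias, clearly in AML and by little in bcCML. The fitted shared difference was 0.60 ± 0.10 (log2, SE; limma adjusted p = 0.043, and 0.0793 with the bcCML block), and its call ended on leaving out any 1 of the 12 arrays, with adjusted p up to 0.118.

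**Figure D4:**
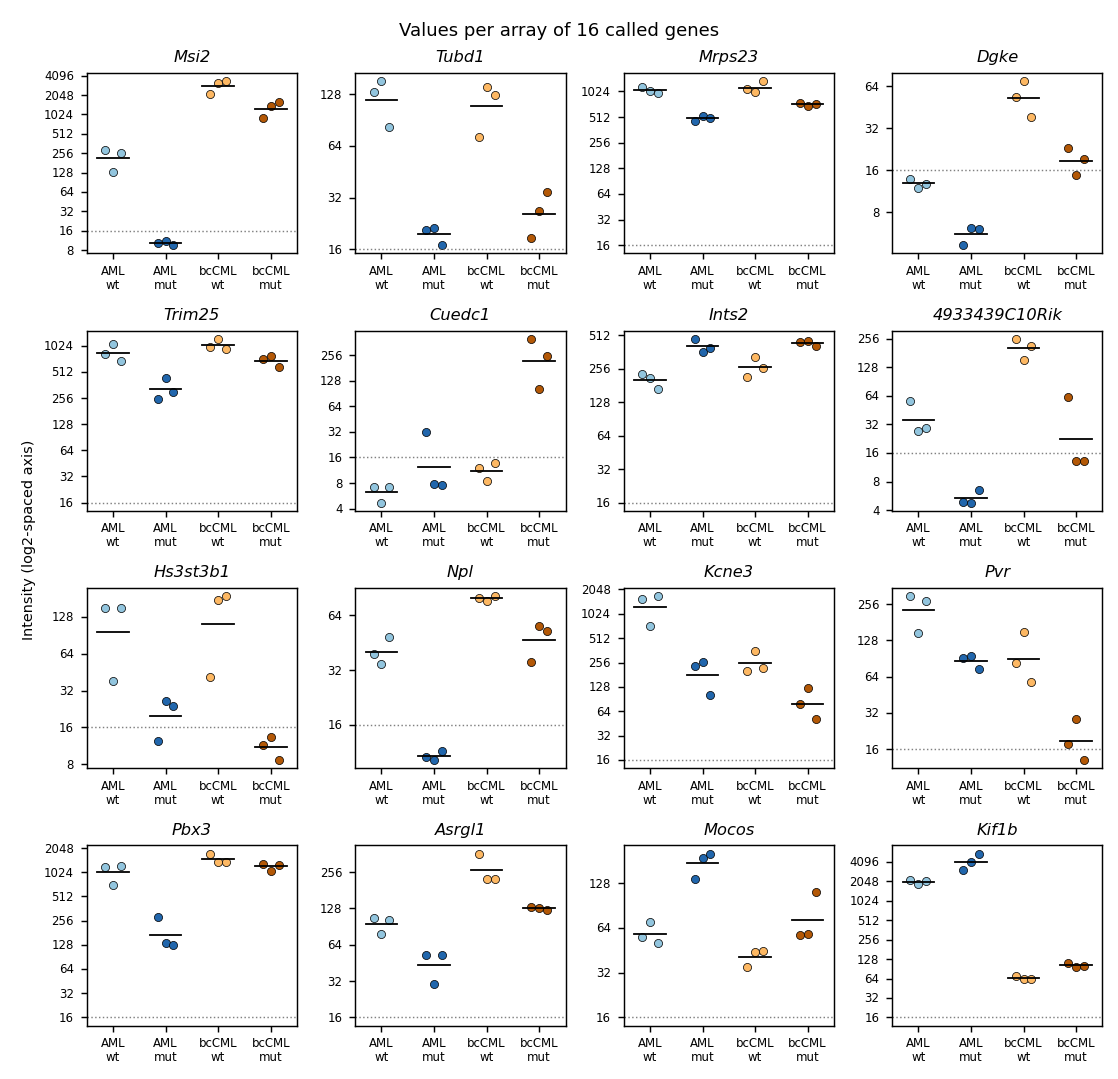
Intensity on each array (points, log2-spaced axis, dotted line at 16 units) and geometric group mean (bar) for 16 called genes, each by its called probe set with the smallest p, in wild-type (light) and mutant (dark) AML (blue) and bcCML (orange). In every panel the 3 mutant points lie to 1 side of the 3 wild-type points in both leukaemias, by little for Pbx3 in bcCML and for Cuedc1 in AML.

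Elsewhere in the genome, genes of sugar, lipid and amino acid metabolism were among the falls. Npl, the lyase that breaks down the sialic acid N-acetylneuraminate, had the smallest p of any gene outside chromosome 11 with arrays apart in both leukaemias. It read 39.4, 34.4 and 48.7 units in wild-type and 10.6, 10.3 and 11.6 in mutant AML. In bcCML it read 80, 77.1 and 81.5 in wild-type and 35.3, 55.6 and 52.3 in mutant cells. The replicates were close and the groups well apart, with mutant AML below 16 units. The shared difference was -1.33 ± 0.14 (log2, SE; limma adjusted p = 0.00472).

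Gpam, the mitochondrial acyltransferase that starts glycerolipid synthesis, read 512, 468 and 439 units in wild-type and 161, 218 and 184 in mutant AML, and 1177, 871 and 1065 in wild-type and 815, 779 and 802 in mutant bcCML. The gap was wide in AML and small in bcCML. In the shared contrast Gpam stood at -0.85 ± 0.11 (log2, SE; limma adjusted p = 0.0172). Asrgl1, an asparaginase-like hydrolase, had 3 of its 4 probe sets called and all 4 negative. The one with the smallest p went from 96.1 ± 15 to 45.1 ± 12.9 units in AML (SD, n = 3) and from 272 ± 80 to 128 ± 3.89 in bcCML (SD, n = 3). Its shared difference was -1.08 ± 0.18 (log2, SE; limma adjusted p = 0.043, and 0.0564 with the bcCML block), and the brighter ones gave -0.64 and -0.74 (adjusted p = 0.0446 and 0.0468, both 0.081 with the block).

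Membrane and signalling proteins were also among the falls in both leukaemias. Kcne3, an accessory subunit of potassium channels, read 1549, 715 and 1690 units in wild-type and 230, 258 and 102 in mutant AML, and 202, 360 and 218 in wild-type and 79.1, 123 and 50.7 in mutant bcCML. All mutant arrays lay below their wild-type counterparts, though the spread within groups was wide. This gave a shared difference of -2.21 ± 0.33 (log2, SE; limma adjusted p = 0.0276), 4.64-fold. Pvr, a nectin-like adhesion protein and ligand of receptors on natural killer and T cells, read 297, 149 and 269 units in wild-type and 92.2, 94.9 and 73.7 in mutant AML, and 83.8, 151 and 57.5 in wild-type and 17.8, 28.5 and 13 in mutant bcCML. Its groups did not overlap in either leukaemia, and the shared difference was -1.83 ± 0.28 (log2, SE; limma adjusted p = 0.0308). Neither the AML (adjusted p = 0.149) nor the bcCML difference of Pvr (adjusted p = 0.11) was called by itself. Cd1d1, which presents lipid antigens, went from 739 ± 186 to 310 ± 114 units in AML, and in bcCML from 485 ± 57.9 to 270 ± 18.6 (SD, n = 3 each), a shared difference of -1.06 ± 0.19 (log2, SE; limma adjusted p = 0.0446, and 0.0813 with the bcCML block).

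Among regulators of transcription and of protein turnover, Pbx3, the cofactor of Hox proteins, fell mainly in AML. Its probe set with the smallest p read 1194, 719 and 1230 units in wild-type and 288, 134 and 126 in mutant AML. The bcCML arrays read 1746, 1374 and 1377 in wild-type and 1298, 1066 and 1278 in mutant cells. The arrays were apart in both, in bcCML by less than the spread within a group. The fitted shared difference was -1.44 ± 0.22 (log2, SE; limma adjusted p = 0.0313, and 0.0536 with the bcCML block), and the brighter probe set gave -1.13 ± 0.18 (limma adjusted p = 0.0326, and 0.0588 with the block). Both calls ended without 10 of the 12 arrays, with adjusted p up to 0.0985.

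Klhl25, an adaptor of cullin-3 ubiquitin ligases, read 25.2, 19.1 and 20.2 units in wild-type and 7.7, 7.48 and 5.67 in mutant AML. In bcCML it read 9.03, 11.3 and 6.88 in wild-type and 5.66, 6.11 and 6.02 in mutant cells, all below 16 units. Only the wild-type AML arrays were above the filter level, so the bcCML part is near the floor. The shared difference was -1.11 ± 0.15 (log2, SE; limma adjusted p = 0.017), and the other tested probe set of Klhl25 had the opposite sign and was not called. Zbed3, which binds axin, went from 16.5 to 4.99 units in AML, and in bcCML from 109 to 65.8 (shared difference -1.25 ± 0.20, limma adjusted p = 0.0326). The zinc finger gene Zfp266 went from 22.3 to 13.3 units in AML, and in bcCML from 109 to 42.7 (-1.03 ± 0.16, limma adjusted p = 0.0331, and 0.0536 with the bcCML block).

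The called falls also held Rad23b and Mutyh, of DNA repair, and Bid, of cell death. Rad23b, a partner of XPC in nucleotide excision repair, read 112, 103 and 120 units in wild-type and 93.9, 78.5 and 79.5 in mutant AML. The bcCML arrays read 316, 269 and 306 in wild-type and 168, 146 and 165 in mutant cells. The fall was the larger in bcCML, and the shared difference was -0.65 ± 0.10 (log2, SE; limma adjusted p = 0.0278). Of its 4 tested probe sets 3 had this sign and 1 was called. Mutyh, the glycosylase that removes adenine opposite oxidised guanine, went from 44.4 ± 4.26 to 24.9 ± 1.06 units in AML, and in bcCML from 27.7 ± 4.14 to 21.2 ± 1.17 (SD, n = 3 each). In the shared contrast Mutyh stood at -0.60 ± 0.10 (log2, SE; limma adjusted p = 0.043, and 0.0677 with the bcCML block), and the call held in none of the fits without 1 array, with adjusted p up to 0.135. Bid, a BH3-only protein that links death receptors to mitochondria, went from 237 ± 17.9 to 137 ± 27.4 units in AML, and in bcCML from 85.3 ± 22 to 41.5 ± 4.11 (SD, n = 3 each), a shared difference of -0.91 ± 0.15 (log2, SE; limma adjusted p = 0.043).

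The remaining falls apart in both leukaemias were Myo16, D17H6S56E-5, Armcx1, Borcs7 and 1500011B03Rik. Myo16, an unconventional myosin, was in effect a bcCML difference. It read 55.8, 175 and 68.4 units in wild-type and 5.4, 4.59 and 7.14 in mutant bcCML, while all AML arrays lay between 4.5 and 5.67. Its AML arrays were apart only by fractions of a unit at the floor, and the shared difference of -2.04 ± 0.25 (log2, SE; limma adjusted p = 0.0135) averages -3.96 in bcCML and -0.13 in AML.

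D17H6S56E-5 read 670, 673 and 580 units in wild-type and 314, 269 and 345 in mutant AML, and 1923, 2447 and 2262 in wild-type and 1681, 1169 and 1155 in mutant bcCML. The groups were apart in both, and the shared difference was -0.90 ± 0.13 (log2, SE; limma adjusted p = 0.0245). Armcx1, a mitochondrial armadillo-repeat protein encoded on the X chromosome, went from 38.4 to 9.83 units in AML, and in bcCML from 157 to 88.5 (-1.34 ± 0.23, limma adjusted p = 0.043, and 0.0793 with the bcCML block). Borcs7, a subunit of the BORC complex that positions lysosomes, went from 629 to 330 units in AML, and in bcCML from 626 to 523 (-0.60 ± 0.10, limma adjusted p = 0.043, and 0.0804 with the block). 1500011B03Rik went from 130 to 78.2 and from 422 to 280 units (-0.66 ± 0.11, limma adjusted p = 0.043, and 0.0694 with the block). It moved by much the same amount in each leukaemia.

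Besides Cuedc1, Ints2 and Tnip1, 4 genes were higher on all mutant arrays of both leukaemias. Arap2, a GTPase-activating protein for Arf proteins, read 10.9, 6.89 and 5.12 units in wild-type and 28.5, 29.2 and 29.4 in mutant AML, and 6.12, 5.17 and 5.15 in wild-type and 8.18, 19.6 and 11.4 in mutant bcCML. Both wild-type groups were below 16 units. Its shared difference was 1.58 ± 0.23 (log2, SE; limma adjusted p = 0.0245). Mocos, which adds the final sulfur to the molybdenum cofactor, read 55.5, 69.8 and 50.4 units in wild-type and 137, 189 and 202 in mutant AML, and 34.9, 43.7 and 44.5 in wild-type and 57.5, 58.5 and 111 in mutant bcCML. Mutant bcCML replicate 3 lay well above the other mutant bcCML arrays. This gave a shared difference of 1.20 ± 0.19 (log2, SE; limma adjusted p = 0.0331), 2.3-fold, and no group of Mocos was below 16 units.

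Kif1b, a kinesin that carries mitochondria and vesicles along axons, read 2122, 1883 and 2069 units in wild-type and 3095, 4103 and 5522 in mutant AML. In bcCML it read 69.8, 63 and 63.3 in wild-type and 112, 95 and 102 in mutant cells. The groups were apart at levels that differed widely between leukaemias, and the shared difference was 0.84 ± 0.14 (log2, SE; limma adjusted p = 0.0373, and 0.0634 with the bcCML block). Of the 6 tested probe sets of Kif1b, 4 had this sign and 1 was called. Mfap3l read 15.2, 11.3 and 14.4 units in wild-type and 23.2, 23.8 and 35.6 in mutant AML, and 4.51, 6.31 and 5.43 in wild-type and 10.4, 7.74 and 9.08 in mutant bcCML. Only mutant AML was above 16 units. Its shared difference of 0.87 ± 0.15 (log2, SE) was the call nearest the threshold (limma adjusted p = 0.0481, and 0.0878 with the block), and it held in none of the fits without 1 array.

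The 22 genes apart in AML alone entered the shared calls through a large AML difference. Those that rose were Galnt7, which starts mucin-type O-glycans, Fam71b, Megf9, the transporter gene Abcg3 and Il1rn, the interleukin-1 receptor antagonist. Galnt7 went from 323 ± 23.1 to 1078 ± 76.1 units in AML (SD, n = 3) and stood at 1036 ± 38 and 1133 ± 192 in bcCML (SD, n = 3), so by this probe set mutant AML reached the bcCML level. In the shared contrast Galnt7 stood at 0.93 ± 0.10 (log2, SE; limma adjusted p = 0.00864), and all 3 of its probe sets were positive, 2 of them called. By the other called one, mutant AML averaged 231 units, below the 394 of wild-type and 442 of mutant bcCML. By the one not called, it averaged 129.5 units, below 183 and 185. Fam71b went from 6.82 to 194 units and Megf9 from 6.99 to 66.5 in AML, while both lay below 10 units on every bcCML array. Abcg3 went from 45.4 to 291 and Il1rn from 65.9 to 237 units in AML (adjusted p of Il1rn = 0.0793 with the bcCML block), also with both bcCML groups below 16.

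Among the falls of this kind were enzymes of serine and lipid metabolism. Psat1, of the serine synthesis pathway, went from 13370 ± 2380 to 4502 ± 538 units in AML (SD, n = 3) and from 14600 ± 993 to 12990 ± 1880 in bcCML (SD, n = 3), a shared difference of -0.87 ± 0.12 (log2, SE; limma adjusted p = 0.0245). Shmt2, the mitochondrial serine hydroxymethyltransferase, went from 416 to 181 units in AML, and in bcCML from 532 to 381 (-0.83 ± 0.13, limma adjusted p = 0.033). Fads1, the delta-5 fatty acid desaturase, went from 53.1 to 8.5 units in AML, and in bcCML from 330 to 265. Galnt6, another initiator of O-glycans, went from 509 to 96.4 units in AML, and in bcCML from 882 to 676, so it moved opposite to Galnt7.

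Some receptors and proteins of adhesion and the cytoskeleton had arrays apart in AML alone. Il3ra, the interleukin-3 receptor alpha chain, went from 311 to 85.7 units in AML, and in bcCML from 108 to 86.8 (adjusted p = 0.075 with the bcCML block). Gpr183, an oxysterol receptor, went from 272 to 18.6 units in AML (0.0608 with the block), and Adgrl4, an adhesion receptor, from 2090 to 312 (0.0634 with the block), both below 16 units throughout bcCML. Mfge8, which bridges apoptotic cells to phagocytes, went from 150 to 32.4 units in AML, and in bcCML from 260 to 240. Cttn, the actin-binding protein cortactin, went from 265 to 9.48 units in AML, and in bcCML from 1864 to 1518. Abcc8, the sulfonylurea receptor, went from 86.1 to 9.57 in AML and was below 16 in bcCML.

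The other AML-weighted falls were Hmgn3, a nucleosome-binding protein (159 to 15.7 units in AML, 3687 to 3517 in bcCML), Bik, a BH3-only protein (30.3 to 4.7 in AML) and the collagenase gene Mmp8 (172 to 16.3 in AML, adjusted p = 0.0694 with the bcCML block). Tcf24 went from 805 to 53.9 units in AML (0.0797 with the block) and Zfp938 from 55 to 22.4 (0.0833 with the block). Fam161a, a ciliary protein of chromosome 11, went from 27.9 to 9.03 (0.0564 with the block), and 2610524H06Rik from 160 to 67.7. A second called probe set of Hmgn3 gave -1.30 ± 0.23 (log2, SE; limma adjusted p = 0.0446, and 0.0634 with the block). In bcCML, Bik, Mmp8, Tcf24 and Fam161a lay below 16 units on all arrays of both groups.

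In bcCML alone, 7 genes had arrays apart. Myo7a, a myosin of sensory cells, went from 230 ± 39.1 to 41 ± 18.7 units in bcCML and stood at 918 ± 50.9 and 933 ± 137 in AML (SD, n = 3 each), a shared difference of -1.27 ± 0.19 (log2, SE; limma adjusted p = 0.0276). Pdgfrb, a receptor of platelet-derived growth factor, went from 540 to 53.5 units in bcCML and from 236 to 44.2 in AML, where its arrays overlapped (-2.69 ± 0.47, limma adjusted p = 0.0477, and 0.0813 with the bcCML block). Ankrd29 went from 27.6 to 5.9 units and the sialyltransferase gene St6galnac3 from 23.5 to 8.46 in bcCML, and Ppy, pancreatic polypeptide, from 5.26 to 31.2. Cttnbp2, a cortactin-binding protein, went from 10 to 47.2. These 4 and Rsad1 lay below 16 units on all AML arrays.

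Tubb2a, a beta-tubulin, went from 876 ± 85.9 to 261 ± 73.6 units in AML but from 320 ± 18.1 to 369 ± 12.8 in bcCML (SD, n = 3 each), with arrays apart to opposite sides. Its shared difference of -0.79 ± 0.14 (log2, SE; limma adjusted p = 0.043, and 0.0808 with the bcCML block) therefore averages changes of opposite sign, and the difference between leukaemias had an adjusted p of 0.0546. In all, 20 of the 74 called probe sets had both groups of 1 leukaemia below 16 units on all arrays. When only probe sets with a group mean above 16 units in each leukaemia were tested, a choice made after seeing the data, 51 were called, all among the 74.

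Of the 12 genes followed whatever their values, Msi2 and Pbx3 were called. Tspan3, the tetraspanin that the series is about, read 74.9, 109 and 57.9 units in wild-type and 6.92, 20.6 and 30.3 in mutant AML. The bcCML arrays read 246, 310 and 266 in wild-type and 143, 185 and 220 in mutant cells. All mutant arrays were below all wild-type arrays of the same leukaemia. The shared difference of -1.43 ± 0.32 (log2, SE) missed the threshold (limma adjusted p = 0.101), and the exact two-sided permutation test within leukaemias gave p = 0.005, the smallest possible, unadjusted. Arrays apart to the same side in both leukaemias, as in 404 tested probe sets (2.08%), fix this p, so it adds nothing to that separation. With array weights the limma adjusted p was 0.0189.

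Flt3, a cytokine receptor of early progenitors, read 642, 149 and 674 units in wild-type and 147, 16.6 and 42.5 in mutant AML, and 426, 412 and 462 in wild-type and 270, 109 and 120 in mutant bcCML. Its arrays too were apart in both, by little in AML because of wild-type replicate 2, and the shared difference was -2.30 ± 0.54 (log2, SE; limma adjusted p = 0.108). Cd34 gave -1.50 ± 0.48 (limma adjusted p = 0.217) and Bcat1, the branched-chain aminotransferase, -1.11 ± 0.45 (limma adjusted p = 0.331), both with overlapping arrays. Myc stood at -0.47, and Kit, Hoxa9, Meis1, Numb and the chemokine receptor gene Cxcr4 lay between -0.07 and 0.05, with adjusted p-values from 0.868 to 0.977 and overlapping arrays. Their signs turned under some settings, so no direction is given for them.

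Gene lists were read against the background of 0.592% of genes called by any probe set, which is how calls in a list are counted. List medians take each gene by its brightest probe set and were set beside a median shared difference of -0.04 over all genes. Glycan synthesis and breakdown held the most calls, with 4 lower and 1 higher of 33 tested (15.2%): Npl, Hs3st3b1, St6galnac3, Galnt6 and Galnt7. St6galnac3 passed the filter through 1 group only. All the lists were drawn up with earlier results of these data known, so the calls a list holds are a description and not a test of it. The glycan median was -0.08, and this list did not move one way as a whole, with 18 members negative and 15 positive. Of 21 tubulin and centriole genes 2 were called (9.52%), with a list median of -0.18. Tubd1 was lower in both leukaemias, and Tubb2a lower in AML and higher in bcCML. In each of several other lists 1 gene rose: Kif1b of 18 motor proteins, Ints2 of 14 Integrator subunits, Tnip1 of 17 NF-kappaB regulators and Mocos of 6 genes of the molybdenum cofactor. In others 1 fell: Kcne3 of 22 ion channel genes, Pbx3 of 15 genes of the Hox programme and Msi2 of 21 RNA-binding proteins. Msi2 is the trapped gene itself.

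Other lists had no call but a median away from that of all genes. Of 30 nucleolar and ribosome biogenesis genes 28 were negative, with a median of -0.24 (-0.37 in AML, -0.11 in bcCML). Among them Rrp12 stood at -0.66 ± 0.15 (limma adjusted p = 0.101) and Nolc1 at -0.74 ± 0.17 (limma adjusted p = 0.102), followed by Wdr74 at -0.61. Of 34 DNA replication genes 30 were negative, with a median of -0.16 and nearly the same in AML (-0.15) and bcCML (-0.16), led by Pola2 at -0.44 and Orc6 at -0.37. Mitosis genes had a median of 0.01 over 31 members. Of 41 genes of the respiratory chain 33 were negative, with a median of -0.08 and Ndufv1 at -0.49 ± 0.10 (limma adjusted p = 0.0617). Branched-chain amino acid genes stood at -0.21 over 19 members, with the transporter subunits Slc7a5 at -0.61 (limma adjusted p = 0.0814) and Slc3a2 at -0.48. The nucleolar median lay between -0.28 and -0.19 over all settings tried, the replication median between -0.25 and -0.10, the respiratory chain median between -0.11 and -0.03 and the branched-chain median between -0.26 and -0.13. Centring each array on its median moved the median of all probe sets from -0.04 to 0.01.

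**Figure D5:**
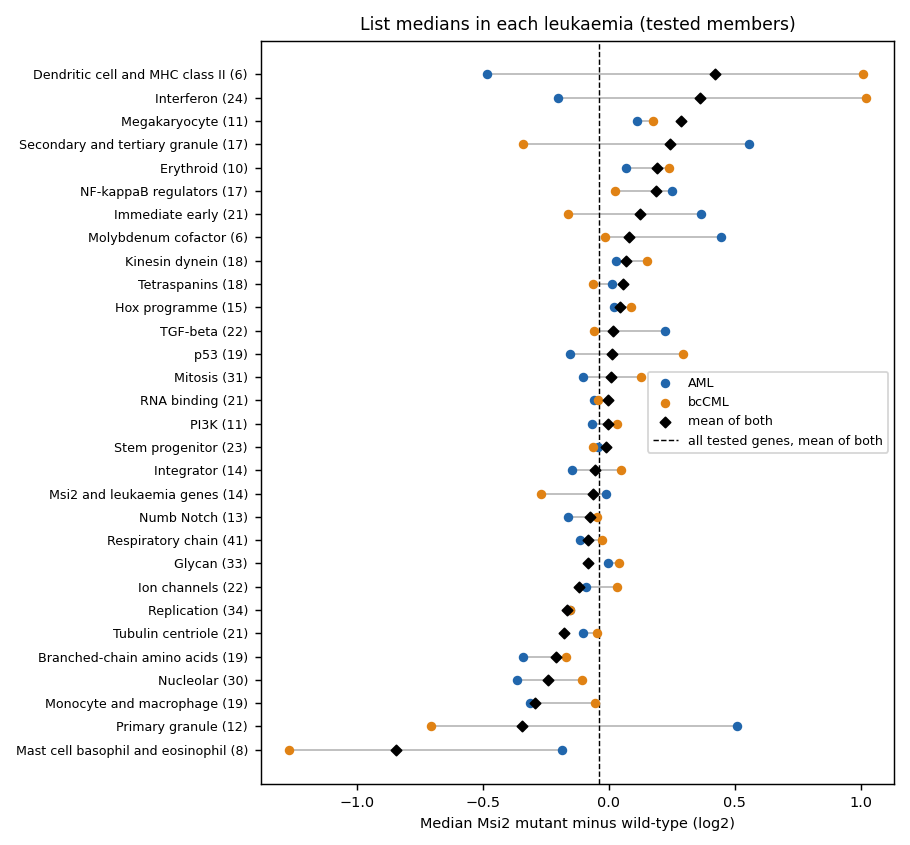
Median log2 difference between mutant and wild-type over the tested members of each gene list (number in brackets) in AML (blue), bcCML (orange) and for the mean of both (black), for lists with at least 6 tested members. The dashed line is the median of all tested genes, -0.04, and the interferon, granule and dendritic cell lists have medians on opposite sides of 0 in the leukaemias.

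Lists of cell types and states often went opposite ways in the 2 leukaemias. Interferon-response genes had a shared median of 0.36 with 20 of 24 positive, but -0.20 in AML and 1.02 in bcCML. Primary granule genes stood at 0.51 in AML and -0.71 in bcCML, and secondary and tertiary granule genes at 0.56 and -0.34. The summed level of the 17 secondary and tertiary granule genes ran from 127600 to 149300 units in wild-type and from 176700 to 226900 in mutant AML, and Mmp8, its 1 called gene, fell while Ltf and Fcnb had AML differences of 2.66 and 2.46. Monocyte and macrophage genes summed to 62990 to 81750 units in wild-type and 30930 to 113500 in mutant AML, and in bcCML to 1890 to 2643 in wild-type and 2667 to 2992 in mutant cells. Genes of mast cells, basophils and eosinophils had the lowest median, -0.85 with 7 of 8 negative, and none was called. That median was -0.07 when probe sets below the filter were added. The summed levels of these 8 genes overlapped in AML (2836 to 7334 units in wild-type, 1954 to 7354 in mutant) and in bcCML (19990 to 29160 and 17160 to 23710). Without the probe sets near the floor in 1 leukaemia, the median of secondary and tertiary granule genes was -0.41 and that of monocyte and macrophage genes 0.06, so these lists have no settled direction. The part of such cell types in the shared falls was not tested.

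Stem and progenitor genes had a median of -0.01 over 23 members and no call. Nearest the threshold was Cd93, a receptor of early progenitors, at -1.03 ± 0.19 (log2, SE; limma adjusted p = 0.0588), from 8493 to 3253 units in AML, and in bcCML from 1799 to 1056, with arrays apart in both. Lists with no call and medians between -0.07 and 0.06 were tetraspanins (18 tested), PI3-kinase genes (11), Numb and Notch genes (13), TGF-beta genes (22) and p53 targets (19). In the p53 list Phlda3 stood at 1.55 ± 0.31 (limma adjusted p = 0.0681) and in the PI3-kinase list Pik3r6 at 1.45 ± 0.27 (limma adjusted p = 0.0542), the second from bcCML alone. Of T and NK cell, B cell, erythroid and megakaryocyte genes 4, 3, 10 and 11 were tested, and none was called. The summed level of the 4 T and NK cell genes nevertheless lay apart in bcCML, from 2825 to 4739 units in wild-type and from 5679 to 8122 in mutant cells. Most of it was Gzmb, a granzyme of cytotoxic cells (1771 to 4766 units in bcCML, limma adjusted p = 0.166 for the shared difference). In AML the sums overlapped (294 to 440.3 and 296 to 416 units), and the part of such cells in the calls was not tested. Of 4 tested sex-linked genes none was called, but the leukaemias differed in them. Xist, the RNA of the inactive X chromosome, averaged 5602 units in wild-type and 5599 in mutant AML but 22.2 and 57.7 in bcCML. The Y-linked Eif2s3y averaged 5.5 and 5.37 units in AML but 2635 and 1395 in bcCML, where the mutant arrays read 2844, 218 and 1122. The part of these levels in the calls was not tested.

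Just outside the threshold, 152 probe sets had an adjusted p between 0.05 and 0.10, 125 lower and 27 higher. The largest adjusted p of a call was 0.0481 (Mfap3l) and the smallest beyond it 0.0501 (Pelo, a ribosome rescue factor, -0.93 ± 0.17). Next among negative differences were Sox12 (-0.98), Capn9 (-1.36), the translation initiation factor Eif1a (-0.54) and Mmd (-0.82), with arrays apart in both leukaemias for Eif1a and Mmd. Among positive ones were Galnt7 by another probe set (1.31), Fmo5 (0.66), Pik3r6 (1.45), Zfp692 (0.76) and the kinase gene Prkca (0.91), with arrays apart in both for Zfp692. These values did not pass the test and are given as a description of its margin.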

How the data were processed

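RNA from 12 samples was measured on 12 Affymetrix mouse arrays, 1 per sample. The authors deposited linear intensity values, 1 per probe set, computed with GCRMA per the submitters' processing notes (background correction, normalisation between arrays and summary of probes); its version and settings are not given in the sources used here. Dim probe sets sit near a floor of 4.49 units, so differences of dim genes are measured only in part. Log2 was taken with no pseudocount, and probe sets above 4 on at least 3 arrays, with 1 symbol in GEO's platform annotation, were tested. Of 34945 such named probe sets, 34741 matched the RefSeq gene table used for chromosomes and gene order.

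The 4 group means came from limma 3.58.1 under R 4.3.3 (8 residual and 2.41 prior degrees of freedom), and the fit was tested on simulated data. A gene is described by its called probe set with the smallest p, and a gene in a list or followed by name by its brightest. Named were 12 fixed genes, every called gene, up to 3 genes of smallest p per list and near misses; genes with arrays apart in both leukaemias were given array by array for all 7 rises and the 15 falls with the smallest p. The members, the 34 gene lists and the comparison were chosen with earlier results of these data known. The precision is limited by 3 arrays per group. No 2 arrays shared more than 14.7% of values.

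Replicate numbers recur in all groups. In bcCML the deviations of same-numbered arrays correlated at 0.372, 0.368 and 0.249. These arrays were treated as pairs, on the data alone, in an alternative fit and not in the main one. The labels do not say what a number marks. AML gave -0.051, -0.128 and -0.071, and its arrays were paired only in the fit with a block in both leukaemias. Fits with the block, other filters, normalisations, variance models and fits without each array were alternatives.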

Additional observations from a re-analysis of the deposited data

Results flagged for a closer look

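For 6 probe sets the mutant minus wild-type difference itself differed between the leukaemias in the limma fit (0.0309% of those tested), and all 6 were among the shared calls. As the bcCML minus the AML difference on the log2 scale, Rsad1 stood at 2.69 (limma adjusted p = 0.00878), Ankrd29 at -2.25 (0.00878), Galnt7 at -1.62 (0.0477), Fam71b at -4.42 (0.0477), Megf9 at -3.15 (0.0421) and Myo16 at -3.83 (0.0486). Except for Galnt7, each had both groups of 1 leukaemia below 16 units on all arrays. For those 5, values near the floor leave the effect in that leukaemia unmeasured, and Galnt7 was above 16 units in every group.

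Probe sets without a single gene symbol lay outside the comparison. In a limma fit that added them, 8 of 4116 were called (0.194%), 4 lower and 4 higher in mutants. That fit was adjusted over 23529 probe sets, so its share is not directly comparable with the 0.381% of the main fit over 19413. In it 1 probe set stood at 3.66 ± 0.39 (log2, SE; limma adjusted p = 0.00622), above the largest named rise, Cuedc1 at 2.63. Its wild-type AML arrays read 4.51, 9.19 and 8.04 units, near the floor.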

How the results depend on the processing

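All 74 calls kept their sign wherever they were tested, and the Msi2 call held in every refit of its brightest probe set. Its probe sets that were not called gave -1.38 (limma adjusted p = 0.0953) and -1.39 (0.0831). The counts depended on the settings, and the cause was not tested. The robust trended prior called 123 probe sets (106 lower, 100 genes). Array weights, which ran from 0.307 (AML mutant 1) to 4.95 (AML wild-type 1), called 851 (672 lower, 179 higher, 728 genes), and Tspan3 at -1.17 (limma adjusted p = 0.0189). Without weights, the exact permutation p of Tspan3 was 0.005, unadjusted, at -1.43. The additive model called 7 probe sets, all 7 lower and 0 higher, in 6 genes. A replicate block in both leukaemias called 6, all 6 lower and 0 higher, in 5 genes, 3 probe sets of them among the 74, and a replicate block in bcCML alone called 81. The filter above 6 left 10 higher. Centring arrays on their median left 38 lower (66.7% of calls against 78.4%). Requiring a group mean above 16 units in each leukaemia left 6 higher and 42 genes. Without 1 array, counts ran from 12 to 96 probe sets, 8 to 75 lower, 4 to 23 higher and 10 to 88 genes. Fitted alone, each leukaemia called 0 (2043 probe sets in AML and 1863 in bcCML at an unadjusted p under 0.05). The remaining settings, by 1 probe set per gene, no filter, a pseudocount of 16 and quantile normalisation, called 51, 71, 75 and 66. In the same order, only 44, 37, 57 and 64 of these were among the 74 calls. With 1 probe set per gene, only 44 of the 74 were tested.

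Signs turned only for genes far from the threshold: Kit by quantile normalisation (0.00765) and by centring (0.00815), and Hoxa9 by array weights (0.041). Without 1 array, signs also turned for Kit (-0.23 to 0.28), Cxcr4 (-0.0600 to 0.135), Numb (-0.198 to 0.0419), Meis1 (-0.0438 to 0.139), Cd79a (-0.037 to 0.362) and Cd79b (-0.41 to 0.63). Probe sets near the floor limit the sizes of 34 calls with a group below 16 units.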

Other observations

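For 13 called probe sets neither leukaemia's own difference passed the threshold in the limma fit, so only the mean of both was called. They belonged to Dgke (by its 2 brighter probe sets), Rad23b, Pvr, Zfp266, Hs3st3b1, Asrgl1, Alkbh5, Bid, 1500011B03Rik, Cd1d1, Pdgfrb and Mfap3l. Except for Pdgfrb, all had arrays apart to the same side in both leukaemias, and Hs3st3b1 and Pdgfrb had the largest shared falls among them, -2.80 and -2.69 (log2).

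Of the 64 called genes, 38 had more than 1 tested probe set. In 32 of these all tested probe sets had the same sign, and in 7 genes more than 1 probe set was called. Probe sets of opposite sign occurred in Klhl25, Ints2, Rad23b, Zfp266, Kif1b and Fam161a.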
